A study of Mus musculus with 20 samples.

Results

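The transcripts of 8 genes of the Myc and Max network (Myc, Mycn, Max, Mxd1, Mxd3, Mxd4, Mxi1 and Mnt), of 31053 genes in the count matrices, were followed in B and T cells of mice with B-cell disease. The genes were chosen by name, as the Myc family members, their partner Max and the Max-binding antagonists, with earlier results of these data known. Single-cell RNA-sequencing had been done on unselected live cells from spleen (5 Eµ-PRMT5 mice, 4 Eµ-TCL1 mice and 4 Eµ-PRMT5/TCL1 mice) and from sub-mandibular lymph node (3 Eµ-TCL1 and 4 Eµ-PRMT5/TCL1 mice). These 20 libraries came from 13 mice, and 7 mice gave both tissues. Eµ-PRMT5 mice carry a human cDNA of PRMT5, an arginine methyltransferase, under a heavy chain variable region promoter and the Eµ heavy chain enhancer, which are active in immature and mature B cells. Human TCL1 is driven by the same enhancer in Eµ-TCL1 mice, and the transgenes are combined in Eµ-PRMT5/TCL1 mice. All mice were labelled C57BL/6N, all were sampled once they met early removal criteria, the labels give no age, and a wild-type group was not among the samples. Human transgene reads may have no place in the mouse gene list, so that the genotype labels could not be checked from them.

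Myc proteins bind DNA only as a pair with Max, at E-boxes, and raise the transcription of genes for ribosome building, metabolism and cell division. The Mxd proteins, Mxi1 and Mnt pair with the same Max, bind the same sites and recruit Sin3 and histone deacetylases, which lowers transcription. In B cells Myc is known for its rise on antigen receptor signalling and for its translocation to immunoglobulin loci in lymphoma, while most Mxd genes are known as genes of resting or differentiating cells.

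Positions are those of the GENCODE vM21 annotation of GRCm38. Myc (ENSMUSG00000022346, chr15:61985391-61990374, plus strand) encodes the general Myc activator. Mycn (ENSMUSG00000037169, chr12:12936093-12941914, minus strand) encodes its relative of embryonic and neural tissue. Max (ENSMUSG00000059436, chr12:76937269-76962201, minus strand) encodes the shared partner. Mxd1 (ENSMUSG00000001156, chr6:86647042-86669161, minus strand) encodes Mad1, which rises as myeloid cells mature. Mxd3 (ENSMUSG00000021485, chr13:55325168-55329823, minus strand) encodes Mad3, the antagonist known from cells in S phase. Mxd4 (ENSMUSG00000037235, chr5:34173883-34187720, minus strand) encodes Mad4, Mxi1 (ENSMUSG00000025025, chr19:53310518-53375810, plus strand) encodes a further antagonist, and Mnt (ENSMUSG00000000282, chr11:74830920-74845725, plus strand) encodes a broadly expressed antagonist.

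RefSeq promoters (GRCm38.p6, 300 bases, of which 250 lie before the start of the gene) were found for 7 of the 8 genes, in 9 entries. The stretches below are shown because they hold the E-box CACGTG, which reads the same on both strands, or the E2F-type word GGCGGGAA (TTCCCGCC on the other strand), in the genes that differed most between cycling and other cells and in their partners. Capitals mark the match, and each stretch reads along the strand of its gene. Distances count from the RefSeq start of the entry, which differs from the GENCODE position given above in some genes, such as Max and Mxd3. The E-box lay 219 bases before the RefSeq start in Mxd4 (chr5:34187894-34187959, minus strand), 123 bases before it in Mnt (chr11:74830771-74830836, plus strand) and across that start, from 3 bases before it, in Max (chr12:76962246-76962281, minus strand). The E2F-type word lay 137 bases before the RefSeq start in Mxd3 (chr13:55329831-55329898, minus strand).
Mxd4: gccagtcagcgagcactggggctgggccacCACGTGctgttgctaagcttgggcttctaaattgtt
Mnt: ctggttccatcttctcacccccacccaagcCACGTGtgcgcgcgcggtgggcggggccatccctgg
Max: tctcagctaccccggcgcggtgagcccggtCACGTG
Mxd3: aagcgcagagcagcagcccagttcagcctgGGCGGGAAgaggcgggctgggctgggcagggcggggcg
Of all 32851 promoter entries, 7.15% held the E-box and 2.19% held the E2F-type word. Neither word was in the windows of Mxd1, Mxi1 or Mycn. A match describes these letters only, and no binding was measured.

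Each library held between 9348094 and 72440894 UMIs (unique molecular identifiers, 1 per captured RNA molecule). B cells were gated as cells with at least 3 UMIs of Cd79a and Cd79b, none of Cd3d, Cd3e or Cd3g and under 20 of Jchain, which left 30890 cells, 195 to 5136 per library. T cells were gated as cells with at least 2 Cd3 UMIs, under 3 Cd79 UMIs and under 20 of Jchain, which left 30449 cells, 57 to 4625 per library. In the B cell gate Ms4a1, a B cell marker, was seen in 51.0% to 96.7% of a library's cells, and Trac, a T cell marker, in 1.15% to 11.6%. S100a8, a neutrophil marker, was seen in 0% to 28.0% of gated B cells and in 0% to 38.6% of gated T cells. The Cd3 limit removed 1.62% to 69.3% of a library's Cd79-positive cells. A cell was called cycling when 20 proliferation genes, none of them a network gene, made up at least 1 per 1000 of its UMIs with at least 5 UMIs in all. By this rule 2589 B cells (8.38%) and 1287 T cells (4.23%) were cycling, and 10.6% and 11.1% of cells lay within 2 times of the limit. Eµ-PRMT5 spleen 4 stood apart, with 72.9% of its gated B cells cycling and the highest share of Trac (11.6%). The Cd3 limit removed its largest share there (69.3%), which left 800 B cells, and 31 of the 57 gated T cells were cycling. Over the 190 pairs of libraries 4556 cell barcodes were shared, where 4537 were expected from the numbers of cells. Levels are given in CPM, the UMIs of a gene per 1000000 UMIs of that class of cells in that library, and each library counted as 1 replicate.

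Myc was seen in the B cells of every library. In Eµ-PRMT5 spleens 1 to 5 its level was 649, 129, 560, 91.5 and 234 CPM (mean 333 ± 256, SD, n = 5). Eµ-TCL1 spleens 1 to 4 had 130, 72.4, 160 and 69.0 CPM (mean 108 ± 44.6, SD, n = 4). Eµ-PRMT5/TCL1 spleens 1 to 4 had 179, 79.4, 114 and 471 CPM (mean 211 ± 178, SD, n = 4). The highest values were those of Eµ-PRMT5 spleens 1 and 3 and Eµ-PRMT5/TCL1 spleen 4, and the remaining libraries of the 3 groups overlapped. Lymph nodes were closer together, at 138, 108 and 199 CPM in Eµ-TCL1 nodes 1 to 3 and 148, 192, 167 and 131 CPM in Eµ-PRMT5/TCL1 nodes 1 to 4. With each B cell thinned to 1500 UMIs, Myc was seen in 17.2% ± 9.19 of Eµ-PRMT5, 10.9% ± 3.59 of Eµ-TCL1 and 16.2% ± 10.4 of Eµ-PRMT5/TCL1 spleen B cells (SD over libraries). The unthinned shares were 37.0%, 27.8% and 32.5%, at median depths of 7184, 7737 and 7272 UMIs. The thinned shares in T cells of the same spleens were 5.49%, 5.83% and 6.68%. Myc was thus seen in a larger share of B than of T cells in all 3 genotypes, and no cell was left out for depth.

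Mycn was at or near 0 throughout. In B cells 2 UMIs were counted, both in Eµ-PRMT5/TCL1 spleen 4 (0.128 CPM), and in T cells 3, in Eµ-PRMT5/TCL1 spleens 1 and 2. Over libraries a count of 0 (taken as a limit of 3 UMIs) allowed at most 0.0897 to 2.05 CPM in B cells and 0.123 to 7.69 CPM in T cells, counting error only. Mycn passed the filter on low counts in no comparison, and 7 of the 8 genes were tested in each comparison unless stated.

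Max in B cells lay between 57.8 and 190 CPM over the 13 spleens (mean 108 ± 31.2, SD), the lowest in Eµ-PRMT5 spleen 4 and the highest in Eµ-PRMT5/TCL1 spleen 4. The next highest Eµ-PRMT5/TCL1 spleen had 101 CPM. Mnt lay between 7.43 and 50.9 CPM (mean 26.7 ± 11.95), with its lowest and highest values in the same libraries as Max. Mxd4 was 40.4, 88.2, 36.5, 18.6 and 90.2 CPM in Eµ-PRMT5 spleens 1 to 5, between 65.6 and 136 CPM in Eµ-TCL1 spleens and between 55.1 and 112 CPM in Eµ-PRMT5/TCL1 spleens. For Mxd4, Eµ-PRMT5 spleens 1, 3 and 4 lay below every Eµ-TCL1 spleen, and spleens 2 and 5 lay within their range. Mxi1 ranged from 9.50 to 40.6 CPM and Mxd1 from 8.15 to 25.5 CPM over spleens. In lymph nodes Mxd1 reached 114 CPM in Eµ-TCL1 node 3 and 55.6 CPM in Eµ-PRMT5/TCL1 node 3, and was 7.57 to 19.5 CPM in the other 5. S100a8 and S100a9, both neutrophil markers, were seen in 1.96% and 1.65% of the B cells of Eµ-TCL1 node 3 and in 4.97% and 7.73% of those of Eµ-PRMT5/TCL1 node 3, and their part in the Mxd1 levels was not tested. Mxd3 was rare in unsplit B cells, at 0 to 9.17 CPM over spleens, the 2 highest values being those of Eµ-TCL1 spleen 1 and Eµ-PRMT5 spleen 4.

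**Figure D1:**
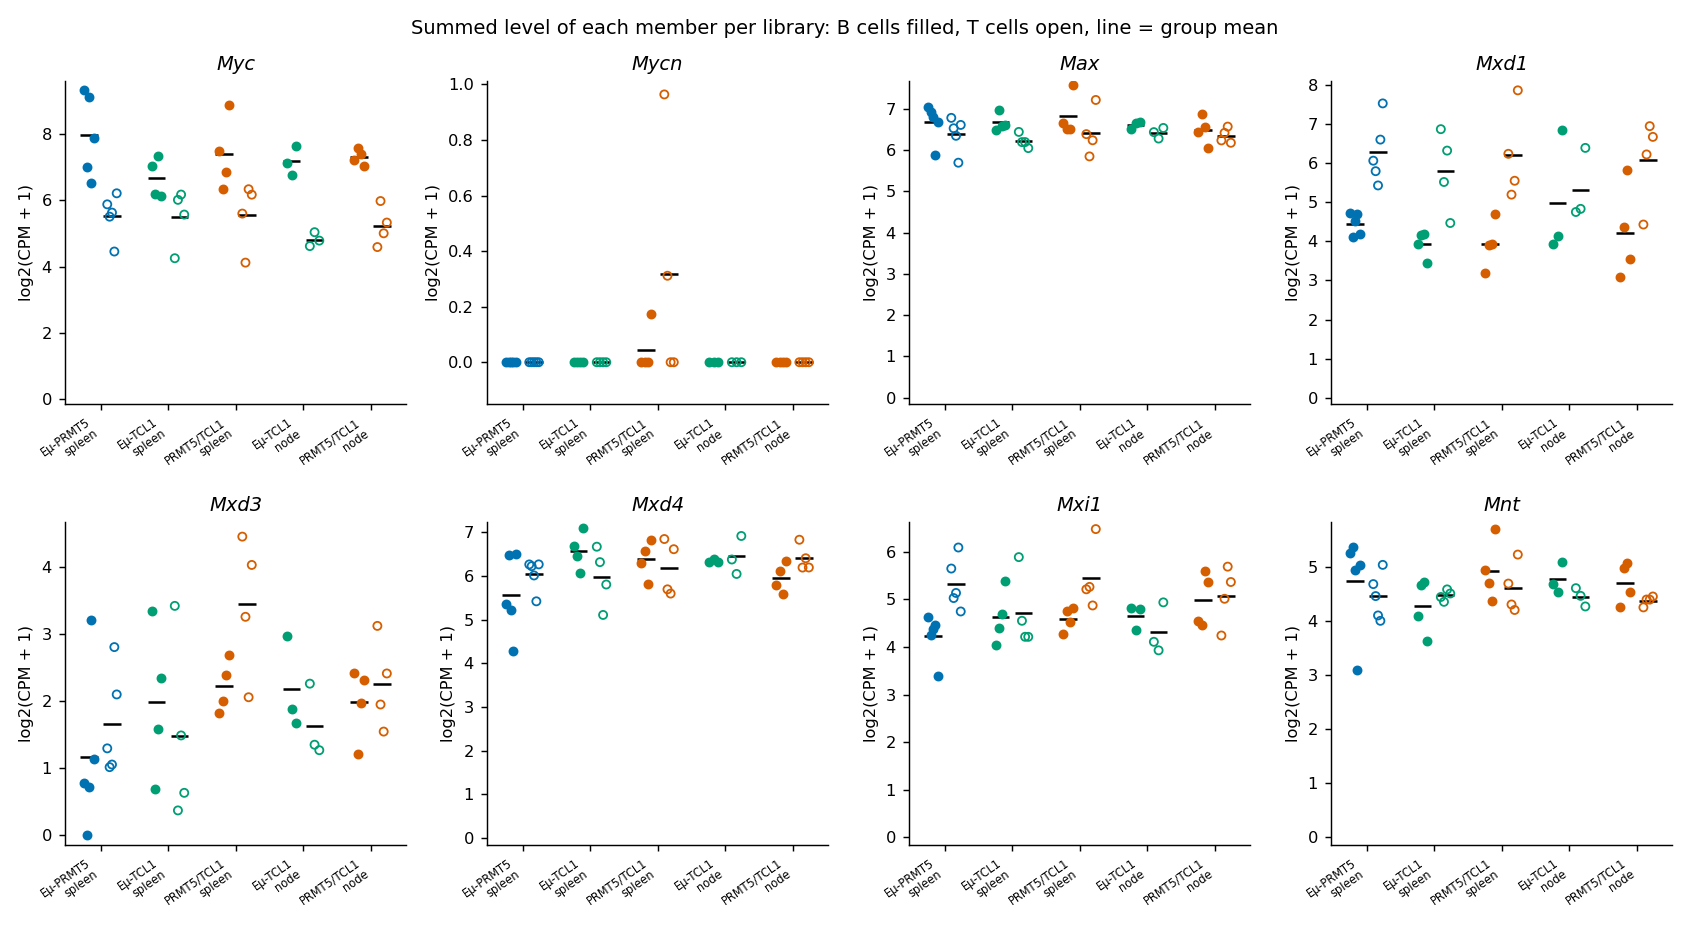
Level of each of the 8 genes as log2(CPM + 1) (vertical axes) in every library by genotype and tissue (horizontal axes), with B cells as filled and T cells as open points and the group mean as a line. Myc in B cells spread from 69.0 to 649 CPM over spleens and overlapped between genotypes, Mxd1 was higher in T than in B cells of the spleens, and Mycn lay at or near 0.

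Genotypes were compared first, to ask whether the network differed with the PRMT5 transgene. For each comparison UMIs were summed per library and tested across all genes with edgeR's quasi-likelihood test, and a gene was called at a Benjamini-Hochberg adjusted p below 0.05. None of the 7 genes was called in B cells of the spleen. Of all genes, 3 of 11541 (0.026%) were called between Eµ-PRMT5 and Eµ-TCL1, 1 (0.00866%) between Eµ-PRMT5/TCL1 and Eµ-TCL1, and 0 (0%) between Eµ-PRMT5/TCL1 and Eµ-PRMT5. At an unadjusted p below 0.05 there were 1979, 524 and 1012 genes. DESeq2 called 691, 23 and 127, with no network gene among those it called. The count of 3 became 303 without Eµ-PRMT5 spleen 4, 68 without Eµ-PRMT5 spleen 5, 9 without Eµ-TCL1 spleen 1 and 1 without any other library but Eµ-PRMT5 spleen 3. Of the network genes 2 had an unadjusted p below 0.05 between Eµ-PRMT5 and Eµ-TCL1 spleens. Myc differed by a log2 change of 1.47 ± 0.58 (SE, adjusted p = 0.227, edgeR) and Mxd4 by -0.94 ± 0.37 (SE, adjusted p = 0.224). The title of Eµ-PRMT5 spleen 3 carries an ID that the study's methods give to a founder mouse, and without that library Myc differed by 1.25 (adjusted p = 0.355). Over all alternatives Myc ranged from 1.09 to 1.77 with adjusted p between 0.0911 and 0.478, and it was not called in any. Myc differed between Eµ-PRMT5/TCL1 spleens and those of Eµ-TCL1 mice by 0.75 ± 0.59 (adjusted p = 1), and over all alternatives by 0.19 to 1.03, the lowest without Eµ-PRMT5/TCL1 spleen 4. These comparisons share libraries and are not independent.

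In lymph node B cells 0 of 10892 genes (0%) were called between Eµ-PRMT5/TCL1 and Eµ-TCL1, with 737 at an unadjusted p below 0.05 and 65 called by DESeq2. None of the 7 network genes reached an unadjusted p below 0.05. The widest difference was that of Mxd1, at a log2 change of -1.11 ± 0.91 (SE), while Myc differed by 0.16 ± 0.27. Without Eµ-TCL1 node 3, where Mxd1 was 114 CPM, the Mxd1 value turned to 0.69 (adjusted p = 0.999), and without Eµ-PRMT5/TCL1 node 3 it was -1.97 (adjusted p = 0.976). Between lymph node and spleen B cells of the same 7 mice 1 of 10971 genes (0.00911%) was called. Without the mouse of Eµ-PRMT5/TCL1 node 1 there were 32, and without that of Eµ-TCL1 node 2 or 3 or Eµ-PRMT5/TCL1 node 2, 3 or 4 there were 0. DESeq2 called 193 genes, and 1101 had an unadjusted p below 0.05. No network gene was called. Mxd4 was lower in the node in 7 of 7 mice (47.3 to 83.0 against 55.1 to 136 CPM), and its log2 change of -0.39 ± 0.14 (SE) had an adjusted p of 0.381. Myc was higher in the node in 6 of 7 mice, the exception being the mouse of Eµ-PRMT5/TCL1 spleen 4, with a log2 change of 0.36 ± 0.30 (adjusted p = 0.741). The groups overlapped for both genes.

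T cells of the spleen were compared in the same way, with 4 of 11175 genes (0.0358%) called between Eµ-PRMT5 and Eµ-TCL1, 0 (0%) between Eµ-PRMT5/TCL1 and Eµ-TCL1 and 0 (0%) between Eµ-PRMT5/TCL1 and Eµ-PRMT5. The numbers at an unadjusted p below 0.05 were 687, 752 and 523, and DESeq2 called 24, 3 and 10. The count of 4 lay between 0 and 9 when 1 library was left out, at 9 without Eµ-PRMT5 spleen 5 and at 0 without spleen 1 or 4 of the Eµ-TCL1 group or spleen 1 or 3 of the Eµ-PRMT5 group. No network gene was among the called genes. Myc in T cells was 57.9, 44.5, 48.5, 20.9 and 73.2 CPM in Eµ-PRMT5 spleens 1 to 5, 18.1 to 71.3 CPM in Eµ-TCL1 spleens and 16.4 to 79.8 CPM in Eµ-PRMT5/TCL1 spleens, so that all groups overlapped. Mxd3 was 20.9, 8.55, 3.15 and 15.3 CPM in T cells of Eµ-PRMT5/TCL1 spleens 1 to 4 and 1.01 to 5.98 CPM in those of Eµ-PRMT5 spleens. Its log2 change of 2.19 ± 0.87 (SE) had an unadjusted p of 0.0253 and an adjusted p of 0.99. These T cells included the cycling ones, and in non-cycling T cells Mxd3 was at most 0.832 CPM over the 13 spleens. Cycling cells made up 21.7%, 11.996%, 6.37% and 19.3% of the T cells of Eµ-PRMT5/TCL1 spleens 1 to 4. Their share was 54.4% in Eµ-PRMT5 spleen 4 and at most 3.98% in the other Eµ-PRMT5 spleens. The part of cycling cells in this Mxd3 difference was not tested. Between node and spleen T cells 6 of 10299 genes (0.0583%) were called. Without the mouse of Eµ-TCL1 node 3 there were 34, without that of Eµ-PRMT5/TCL1 node 1 or 2 there were 26 or 24, and without any of the other 4 there were 0. DESeq2 called 333 genes, and 1339 had an unadjusted p below 0.05. None was a network gene, and none of the 7 reached an unadjusted p of 0.05.

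Cycling cells were then set against the other cells of the same class and library, to ask how the network differs with division. In spleen B cells 9 libraries held at least 20 cells of each kind: Eµ-PRMT5 spleen 4, the 4 Eµ-TCL1 spleens and the 4 Eµ-PRMT5/TCL1 spleens. Of the 7 genes tested 5 were called, 1 higher (Mxd3, which is taken up apart) and 4 lower (Mxd4, Mnt, Max and Mxd1) in cycling cells. Over all 9879 genes 36.9% were called, 18.8% higher and 18.1% lower. Here and in the other paired comparisons the log2 change is the mean over genotypes, each with the same weight, so that in spleen B cells Eµ-PRMT5 spleen 4 alone counts as much as the 4 libraries of another genotype. Cycling cells were deeper, with a median of 12920 against 7390 UMIs in Eµ-TCL1 spleens. A lower level in cycling cells is thus a smaller share of their UMIs, and does not show fewer UMIs of that gene per cell. Per cell, Mxd4 went both ways. Eµ-TCL1 spleen 2 held more per cycling cell, with 64 UMIs in 58 cycling and 2827 UMIs in 5078 other B cells. Eµ-PRMT5 spleen 4 held fewer per cycling cell, with 143 UMIs in 583 cycling and 120 UMIs in 217 other B cells. UMIs per cell were not tested.

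Mxd3 was found almost wholly in cycling B cells. Its level was 9.72 to 41.4 CPM (median 23.3) in cycling cells and 0.0355 to 0.463 CPM (median 0.303) in the others, and the ranges did not overlap. Of its UMIs 523 came from cycling and 23 from other cells. Mxd3 was higher in cycling cells of 9 of 9 libraries, and the ratio of its summed levels was 98.0 (64.6 to 156, exact 95% binomial interval, which covers counting error only). The other cells held 3 or fewer of its UMIs in 7 of 9 libraries, and 0 of these 9 reached the level of about 2.29 CPM that the filter on low counts asks for, so that Mxd3 was tested through its cycling cells alone. Its call thus follows from the filter, and since its fitted log2 change depends on the count added to values near 0, neither is given as support.

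Mxd4 moved the opposite way. Its level was 11.98 to 93.4 CPM (median 50.3) in cycling and 54.8 to 142 CPM (median 86.7) in other B cells, lower in 9 of 9 libraries although the ranges overlapped. The log2 change was -1.24 ± 0.12 (SE, adjusted p = 9.53e-07), and without Eµ-PRMT5 spleen 4 it was -0.69 (adjusted p = 8.85e-05). By genotype it was -2.33 ± 0.30 in Eµ-PRMT5 (1 library), -0.58 ± 0.15 in Eµ-TCL1 and -0.79 ± 0.15 in Eµ-PRMT5/TCL1. Eµ-PRMT5 spleen 4 differed from the Eµ-TCL1 spleens by -1.75 ± 0.33 (adjusted p = 0.0249), and Mxd4 was 1 of 7 network genes called, against 0.871% of all genes. With 1 library the Eµ-PRMT5 arm has no spread of its own and is assumed to vary like the other groups, so that the test compares this library and not the genotype. In it Mxd4 was 11.98 CPM in 583 cycling B cells (143 UMIs) and 54.8 CPM in the 217 others (120 UMIs). The Cd3 limit had removed 69.3% of the Cd79-positive cells of this library. The other Eµ-PRMT5 spleens held 7 to 15 cycling B cells, too few to enter the comparison. S100a8 was seen in 19.3% of the B cells of that library and in 28.0%, 0.759%, 7.76% and 2.34% of those of Eµ-TCL1 spleens 1 to 4, and its part in the result was not tested. No alternative could vary the single Eµ-PRMT5 library, and the call of the difference was lost without the library block (adjusted p = 1) and at cycling limits of 2 (0.137) and 0.5 (0.143) per 1000.

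The other antagonists and Max differed less. Mnt was 6.95 to 45.1 CPM (median 15.3) in cycling and 10.1 to 54.3 CPM (median 24.5) in other B cells, lower in 9 of 9 libraries (log2 change -0.55 ± 0.16, SE, adjusted p = 0.0155). Max was 57.0 to 187 CPM (median 72.9) against 62.1 to 192 CPM (median 96.4), also lower in 9 of 9 (-0.34 ± 0.10, adjusted p = 0.0131). Both shifts were smaller than the spread between libraries, and neither was called without the library as a block (adjusted p = 0.224 and 0.271) or at 2 cycling UMIs per 1000 (0.0799 and 0.125). Mxd1 was 4.55 to 29.5 against 8.25 to 49.4 CPM, lower in 6 of 9 (-0.54 ± 0.18, adjusted p = 0.0312). Without Eµ-PRMT5 spleen 4 its log2 change was -0.09 (adjusted p = 0.735), and the call was also lost without Eµ-TCL1 spleen 1 (adjusted p = 0.0581), Eµ-PRMT5/TCL1 spleen 1 (0.0601) or Eµ-PRMT5/TCL1 spleen 4 (0.0736), with DESeq2 (0.0849), without the library block (0.411) and at 2 cycling UMIs per 1000 (0.0517). Mxi1 was not called (0.18 ± 0.14, adjusted p = 0.335).

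Myc itself was not called in cycling B cells of the spleen. Its level was 36.8 to 437 CPM in cycling and 31.5 to 491 CPM in other cells, lower in 7 of 9 libraries, while the log2 change was 0.22 ± 0.25 (SE, adjusted p = 0.548). By genotype it was 1.56 ± 0.63 in Eµ-PRMT5 (1 library), -0.67 ± 0.31 in Eµ-TCL1 and -0.24 ± 0.29 in Eµ-PRMT5/TCL1, none of them called. The widest opposite moves were those of Eµ-PRMT5 spleen 4, with 103 CPM in cycling and 31.5 CPM in other B cells, and of Eµ-TCL1 spleen 3, with 36.8 and 169 CPM. The direction turned without Eµ-PRMT5 spleen 4 (-0.46, adjusted p = 0.132) and at cycling limits of 0.5 (-0.50, adjusted p = 0.385) and 2 (-0.03, adjusted p = 0.956) per 1000, and without Eµ-TCL1 spleen 3 Myc was called (0.36, adjusted p = 0.00633). No direction can thus be given for Myc. The change in Eµ-PRMT5 spleen 4 differed from that in Eµ-TCL1 by 2.23 ± 0.70 (adjusted p = 0.188, edgeR). Over 20 alternatives this Myc value ran from 0.55 to 2.95, and 3 called it: DESeq2 (adjusted p = 0.0336), no filter on low counts (6.06e-10) and leaving out Eµ-TCL1 spleen 3 (0.00362).

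**Figure D2:**
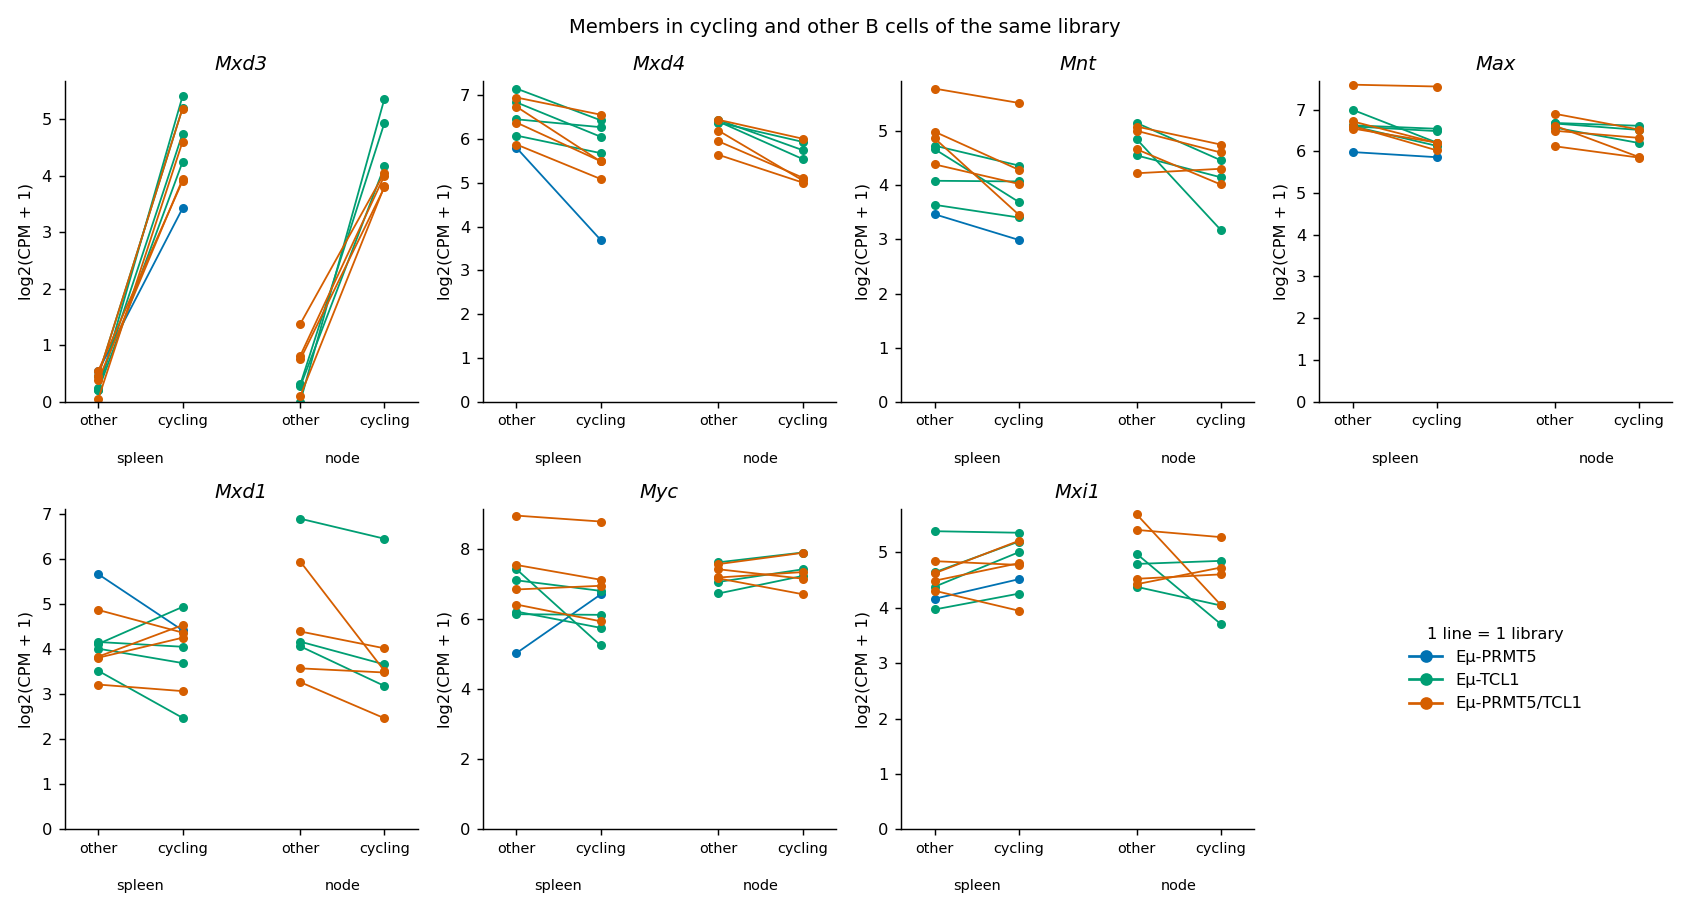
Level of 7 genes as log2(CPM + 1) (vertical axes) in other and cycling B cells (horizontal axes), with 1 line per library, in 9 spleens and 7 lymph nodes. Mxd3 rose in all 16 libraries and Mxd4 and Max fell in all 16, while the lines of Myc crossed. The 7 nodes came from mice whose spleens are also shown, so that the 16 libraries are not independent.

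In lymph node B cells, with 7 libraries, Mxd4, Mnt, Max and Mxd1 were again called lower, where 35.6% of 8718 genes were called, 17.3% higher and 18.2% lower. These nodes came from mice whose spleens were compared above. Mxd3 was called higher, which again follows from the filter. Mxd3 was 12.9 to 40.2 CPM in cycling and 0 to 1.60 CPM in other cells, higher in 7 of 7 nodes, from 136 and 16 UMIs (ratio of summed levels 52.3, interval 31.05 to 94.1). It again passed the filter through cycling cells alone. Mxd4 was 31.2 to 63.5 against 49.0 to 86.1 CPM, lower in 7 of 7 (-0.81 ± 0.12, adjusted p = 5.08e-06). The first 2 ranges did not overlap and the second 2 did. Mnt was lower in 6 of 7 (-0.60 ± 0.16, adjusted p = 0.00385), Mxd1 in 7 of 7 (-0.60 ± 0.16, adjusted p = 0.00581) and Max in 7 of 7 (-0.29 ± 0.10, adjusted p = 0.0256). Some of these levels in cycling cells rested on few UMIs. Mxd1 had 2 in Eµ-TCL1 node 1, 2 in Eµ-PRMT5/TCL1 node 3 and 6 in Eµ-PRMT5/TCL1 node 1. Mnt had 2 in Eµ-TCL1 node 1. Without Eµ-TCL1 node 3 the call of Mnt (adjusted p = 0.0519), Mxd1 (0.0778) and Max (0.0674) was lost and that of Mxd4 held. Max also lost its call without Eµ-TCL1 node 1 (0.0536) or node 2 (0.0837), and Mxd1 with DESeq2 (0.0565). At 0.5 cycling UMIs per 1000 neither Max (0.0510) nor Mxd1 (0.0539) was called, with cells near the limit left out Max was not (0.0553), and without the library block Mnt (0.115), Mxd1 (0.508) and Max (0.230) were not. Myc was 103 to 236 against 105 to 194 CPM and was higher in 5 of 7 nodes, with a log2 change of 0.13 (adjusted p = 0.369), and Mxi1 changed by -0.19 (adjusted p = 0.397).

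In spleen T cells 10 libraries could be compared, namely Eµ-PRMT5 spleens 1, 3, 4 and 5, Eµ-TCL1 spleens 1 and 3 and the 4 Eµ-PRMT5/TCL1 spleens. Of the 7 genes 3 were called lower, where 34.3% of 8746 genes were called, 18.1% higher and 16.2% lower. Mxd3 was called higher, which again follows from the filter. Mxd3 was 8.51 to 65.8 CPM in cycling and 0 to 0.832 CPM in other T cells, higher in 10 of 10 libraries, with 401 of its UMIs in cycling and 21 in other cells (ratio of summed levels 143, interval 92.4 to 234). It passed the filter through cycling cells alone here too. The near absence of Mxd3 outside cycling cells was thus seen in T as in B cells. Mxd1 was 18.6 to 193 against 40.1 to 267 CPM, lower in 8 of 10 (-0.81 ± 0.16, adjusted p = 0.00155). Mxd4 was 19.5 to 88.2 against 34.3 to 134 CPM, lower in 8 of 10 (-0.79 ± 0.17, adjusted p = 0.00318), and Max was lower in 7 of 10 (-0.33 ± 0.11, adjusted p = 0.0301). Without Eµ-TCL1 spleen 1 Mxd4 (adjusted p = 0.0654) and Max (0.252) were not called, and Max was also not called without Eµ-PRMT5 spleen 5 (0.0651) or Eµ-PRMT5/TCL1 spleen 4 (0.0630). Mnt (-0.24, adjusted p = 0.368), Myc (-0.34, adjusted p = 0.260) and Mxi1 (0.33, adjusted p = 0.196) were not called. With cells near the cycling limit left out, Myc (-0.59, adjusted p = 0.0455) and Mxi1 (0.64, adjusted p = 0.00389) were called and Max was not (-0.30, adjusted p = 0.0525). Max was also not called at 0.5 cycling UMIs per 1000 (0.0551), nor Mxd4 (0.0644), and without the library block neither Mxd1 (0.310) nor Max (0.199) was. Only 4 lymph nodes held 20 cycling T cells and were not tested. There Mxd3 was 24.8 to 101 CPM in cycling and 0.166 to 0.237 CPM in other T cells, and Myc was 7.46 to 21.8 against 24.2 to 64.3 CPM, lower in 4 of 4. Few UMIs stood behind these values in Eµ-TCL1 node 1 and Eµ-PRMT5/TCL1 nodes 2 to 4. Mxd3 had 3, 1, 3 and 2 UMIs in the other T cells, and Myc had 5, 6, 15 and 16 in the cycling ones. Mxi1 was 32.8 to 93.4 against 15.7 to 47.5 CPM, higher in 4 of 4.

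**Figure D3:**
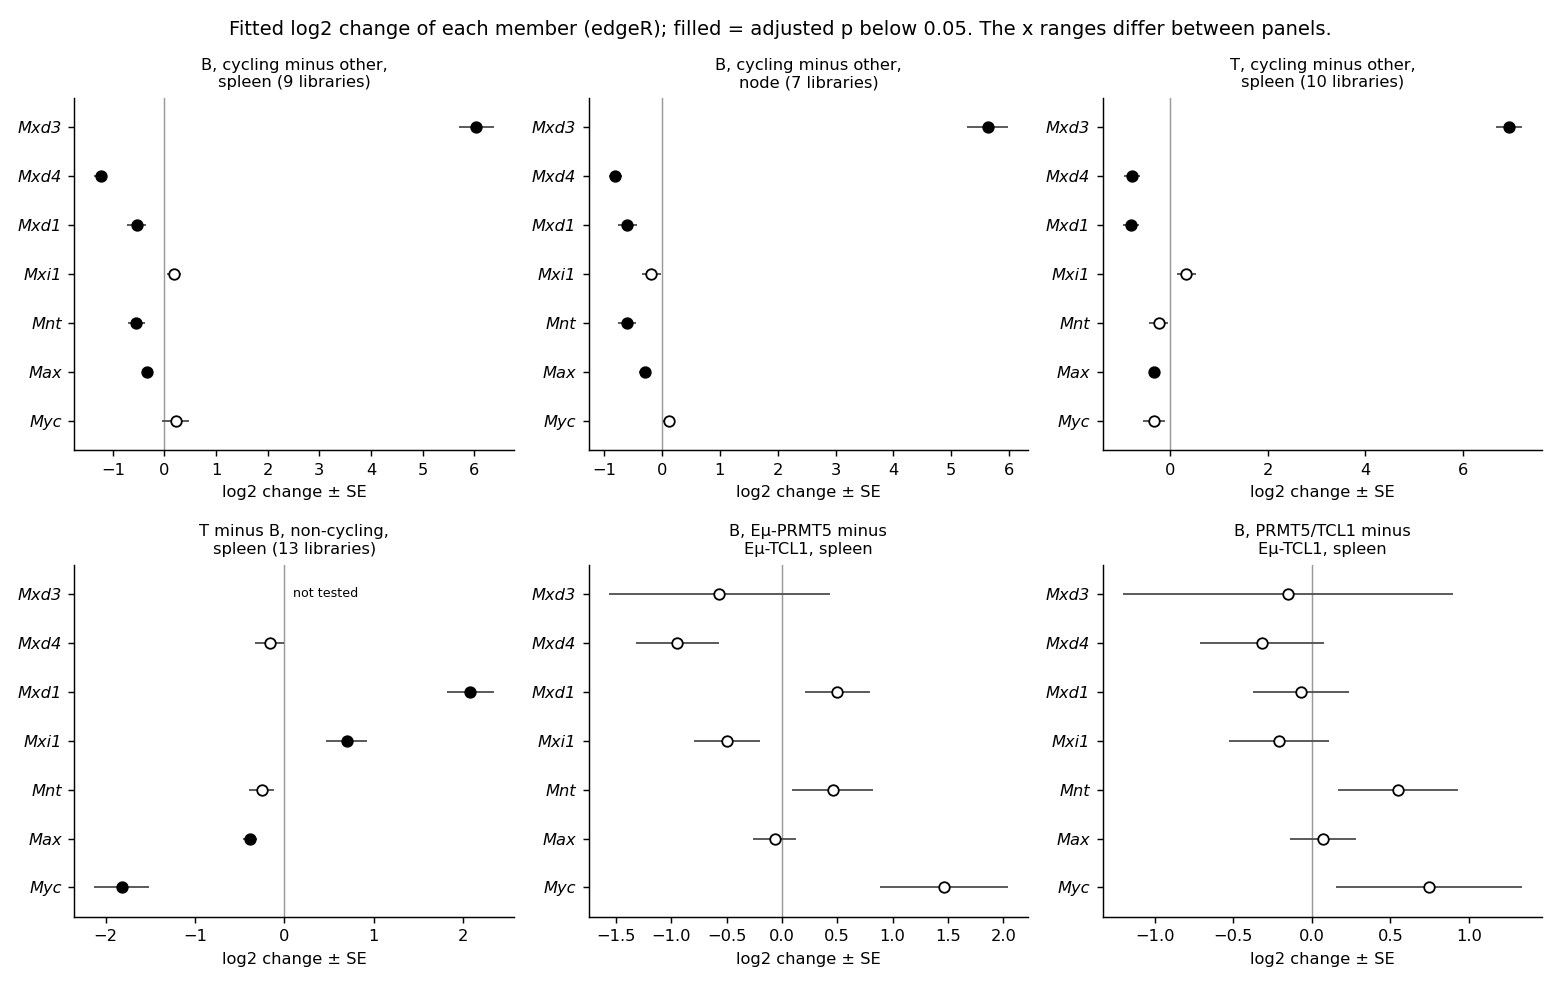
Fitted log2 change ± SE (horizontal axes, whose ranges differ) of each gene (vertical axes) in 6 comparisons: cycling against other B cells in spleen and node, cycling against other T cells in spleen, T against B cells in spleen, and Eµ-PRMT5 and Eµ-PRMT5/TCL1 against Eµ-TCL1 in spleen B cells. Filled points had an adjusted p below 0.05; the points of Mxd3 in cycling cells (5.63 to 6.95) depend on the count added to values near 0, and neither genotype panel holds a filled point.

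T and B cells that were not cycling were compared within the 13 spleens, where 6 of the 8 genes were tested, since Mxd3 and Mycn were too low. Of the 6, 4 were called, Mxd1 and Mxi1 higher and Myc and Max lower in T cells, against 59.9% of 10241 genes called, 29.9% higher and 29.9% lower. Myc was 16.4 to 86.6 CPM in T and 31.5 to 662 CPM in B cells, lower in T cells of 12 of 13 spleens (log2 change -1.82 ± 0.31, SE, adjusted p = 0.000209). Max was 56.7 to 166 against 62.1 to 192 CPM, lower in 13 of 13 (-0.38 ± 0.08, adjusted p = 0.000774). Myc and its partner were thus both lower in T cells. Mxd1 was 21.4 to 267 CPM in T and 8.25 to 49.4 CPM in B cells, higher in 13 of 13 (2.08 ± 0.27, adjusted p = 1.80e-05). Neutrophils of 11 spleens held 154 to 524 CPM of Mxd1. The 2 highest Mxd1 levels in unsplit T cells, 230 CPM in Eµ-PRMT5/TCL1 spleen 4 and 182 CPM in Eµ-PRMT5 spleen 5, stood beside S100a8 in 1.43% and 1.99% of those cells. Over the 13 spleens S100a8 was seen in 0% to 38.6% of T cells, with the highest shares in Eµ-PRMT5 spleen 4 (38.6%, Mxd1 at 95.6 CPM), Eµ-TCL1 spleen 1 (28.55%, 115 CPM) and Eµ-PRMT5/TCL1 spleen 2 (21.8%, 35.5 CPM). The part of neutrophil RNA in the Mxd1 levels was not tested. Mxi1 was higher in T cells of 11 of 13 spleens (0.70 ± 0.23, adjusted p = 0.0182). Mxd4 (-0.16, adjusted p = 0.411) and Mnt (-0.25, adjusted p = 0.139) were not called, although Mnt was called without Eµ-PRMT5 spleen 5 (-0.35, adjusted p = 0.0350). In the 7 lymph nodes, given as values without a test, Myc was lower in T cells of 7 of 7 (24.2 to 64.3 against 105 to 194 CPM) and Mxd1 higher in 6 of 7.

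Relations of Myc to the other genes were computed over the B cells of the 13 spleens, on log2(CPM + 1), for 6 genes. Mnt had a Pearson r of 0.64 with Myc (permutation p = 0.0186, adjusted p = 0.106) and a Spearman rho of 0.71 (permutation p = 0.00914, adjusted p = 0.0548). Max had r = 0.56 (permutation p = 0.0421, adjusted p = 0.106) and rho = 0.47 (permutation p = 0.106, adjusted p = 0.213). Neither passed after adjustment. Without the 2 spleens farthest from the median Myc level r was 0.67 for Mnt and 0.59 for Max, and with each library centred on its genotype 0.63 and 0.67. For Mxd1, r = 0.55 (permutation p = 0.0528, adjusted p = 0.106; rho = 0.59, permutation p = 0.0378, adjusted p = 0.113) became 0.34 without the 2 farthest spleens. For Mxd3, Mxd4 and Mxi1, r was -0.28, -0.24 and -0.17, with permutation p of 0.353, 0.434 and 0.581 (adjusted p = 0.521, 0.521 and 0.581), and rho was -0.19, -0.29 and -0.24, with permutation p of 0.529, 0.343 and 0.427 (adjusted p = 0.529, 0.512 and 0.512). In the non-cycling B cells alone, over 5 genes, Mnt had r = 0.75 (permutation p = 0.00346, adjusted p = 0.0173) and Max r = 0.69 (permutation p = 0.00833, adjusted p = 0.0208). By rank, Mnt had rho = 0.74 (permutation p = 0.00523, adjusted p = 0.0262) and Max rho = 0.55 (permutation p = 0.0555, adjusted p = 0.139), so that Max passed on one measure only. Without the 2 farthest spleens r was 0.62 for Mnt and 0.49 for Max. In the 7 lymph nodes r was 0.72 for Mnt (permutation p = 0.0715, adjusted p = 0.420), 0.46 for Max (permutation p = 0.292, adjusted p = 0.438) and 0.63 for Mxd1 (permutation p = 0.140, adjusted p = 0.420). The spleens shared 3 genotypes and differed in depth.

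**Figure D4:**
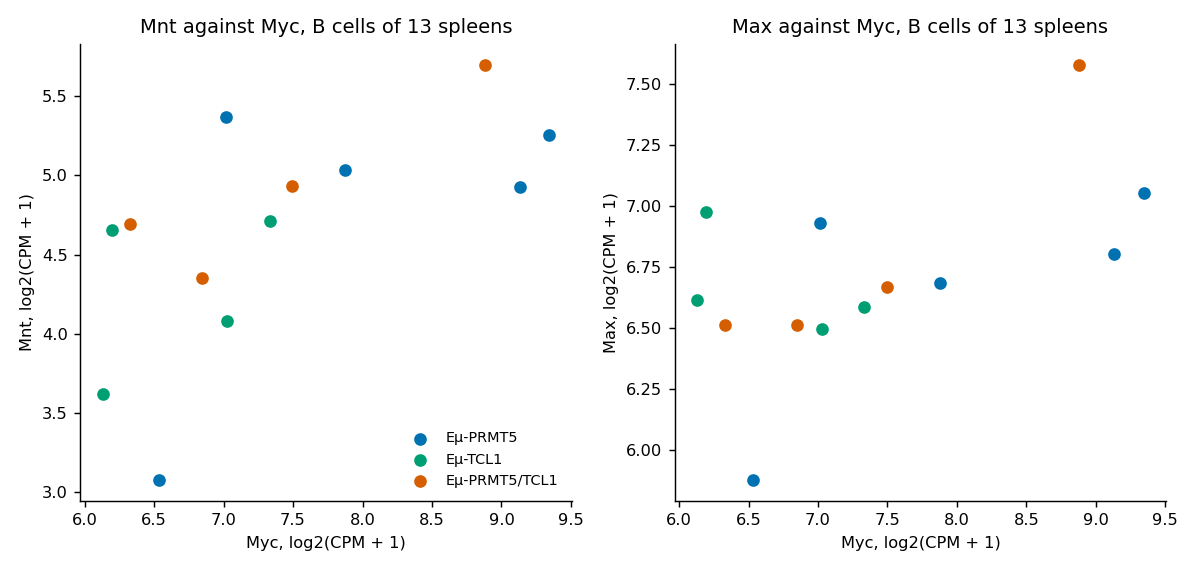
Mnt and Max (vertical axes) against Myc (horizontal axes) as log2(CPM + 1) in B cells of the 13 spleens, with 1 point per library marked by genotype. Pearson's r was 0.64 for Mnt and 0.56 for Max, and Eµ-PRMT5 spleen 4 held the lowest level of both genes.

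The genes whose levels ran most like those of Myc over the 13 spleens, among 5698 genes and as a description only, were 2410002F23Rik (Spearman rho 0.95), Nrbf2 (0.94), Avl9 (0.93), Cfap43 (0.93) and Slc7a6os (0.93). The most opposite were Dynlt1a (-0.86), Lgals1 (-0.85) and Ube2a (-0.85). Mxd3 ran most like Cenpm (0.96), Birc5 (0.94), Tyms (0.93), Rfc5 (0.93) and Spc24 (0.93), of which Birc5 and Tyms belong to the 20 genes that define cycling cells. Mxd4 ran most like Hdac7 (0.94), Yipf3 (0.90), Kctd20 (0.90), Pigc (0.88) and Stk3 (0.88). All points share libraries, depth and the makeup of the gated cells.

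Of 32 genes known to be induced by Myc, most of them for ribosome building, translation and metabolism, 22 were higher and 0 lower in cycling B cells of the spleen, with a median log2 change of 0.57 against -0.03 over all genes, of which 18.8% were higher and 18.1% lower. Without Eµ-PRMT5 spleen 4, 17 were higher and 0 lower, with a median of 0.27 against -0.05. The largest changes were those of Ranbp1 (1.33 ± 0.11, SE, adjusted p = 1.91e-07), which serves nuclear transport, Srm (1.10 ± 0.20, adjusted p = 0.00193), the spermidine synthase, and Cdk4 (1.07 ± 0.10, adjusted p = 8.69e-07), a kinase of the G1 phase. In node B cells 18 were higher and 0 lower (median 0.38 against -0.06, with 17.3% of all genes higher and 18.2% lower), led by Ranbp1 (1.15), Cdk4 (1.06) and Shmt2 (0.83), a mitochondrial enzyme of serine metabolism. In cycling T cells 10 were higher and 2 lower (median 0.12 against -0.04), against 18.1% and 16.2% of all genes. The 12 called in either direction were near the 34.3% of all genes called. Leaving out 1 library moved that median to between 0.05 (Eµ-PRMT5 spleen 4) and 0.18 (Eµ-PRMT5 spleen 1), and the 2 lower genes became 5 without Eµ-PRMT5 spleen 4 and 4 without Eµ-PRMT5/TCL1 spleen 1. Mthfd2, a folate enzyme, was at 1.75 ± 0.14 (adjusted p = 1.83e-07), Ranbp1 at 1.14 and Cdk4 at 1.10. In T against B cells that were not cycling 4 were higher and 19 lower (median -0.38 against 0.01, with 29.9% of all genes in each direction), among them Srm (-1.28 ± 0.17) and Mthfd2 (-1.27 ± 0.14), whereas Odc1, the ornithine decarboxylase, was higher (1.26 ± 0.17). Between Eµ-PRMT5 and Eµ-TCL1 spleen B cells 0 of the 32 were called, against 0.026% of all genes, with a median of 0.61 against 0.02. At an unadjusted p below 0.05 there were 14 of the 32, against 17.1% of all genes. These B cells included the cycling ones, which made up 72.9% of those of Eµ-PRMT5 spleen 4. The part of cycling cells, and of that library, in this median was not tested. For Eµ-PRMT5/TCL1 against Eµ-TCL1, 0 were called in spleen, against 0.00866% of all genes, with a median of 0.30 against 0.0035 and 4 at an unadjusted p below 0.05, against 4.54% of all genes. In spleen T cells 0 of the 32 were called in the same comparisons, against 0.0358% and 0% of all genes. The medians there were 0.44 against -0.0006 and 0.45 against -0.009. At an unadjusted p below 0.05 there were 7 and 5, against 6.15% and 6.73% of all genes.

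Of 16 partners and regulators of the network, 8 were higher and 0 lower in cycling B cells of the spleen (median 0.26), against 18.8% and 18.1% of all genes (median -0.03), led by Ruvbl2 (0.90 ± 0.10), a helicase-like cofactor of Myc, and by Hdac2 (0.71 ± 0.12) and Sin3a (0.67 ± 0.13), of the complex that Mxd proteins recruit. The list was Fbxw7, Usp28, Huwe1, Cip2a, Aurka, Skp2, Trrap, Ruvbl1, Ruvbl2, Zbtb17, Sin3a, Sin3b, Hdac1, Hdac2, Ncor1 and Wdr5. It was not cleared of genes of cell division such as Aurka, and their part in these counts was not tested. Without Eµ-PRMT5 spleen 4, 7 were higher and 1 lower, with a median of 0.12 against -0.05, and 1 was also lower without Eµ-TCL1 spleen 1 or 2 or spleen 4 of the Eµ-PRMT5/TCL1 group. In node B cells 6 were higher and 1 lower (median 0.09 against -0.06), where 35.6% of all genes were called, with Ruvbl2 at 0.91, Hdac2 at 0.50 and Wdr5, a chromatin scaffold, at 0.46. In cycling T cells 5 were higher and 2 lower (median 0.14 against -0.04), where 34.3% of all genes were called, and Huwe1, a ubiquitin ligase, was lower (-0.57 ± 0.13), while Ruvbl2 (0.51 ± 0.15) and Wdr5 (0.43 ± 0.12) were higher. In T against B cells 6 of 15 were higher, such as Trrap (0.71 ± 0.14) and Sin3a (0.52 ± 0.10), and 5 lower, such as Ruvbl1 (-0.51 ± 0.08), where 59.9% of all genes were called. Single libraries moved these counts and medians: the 1 lower gene in node was lost without Eµ-PRMT5/TCL1 node 4 (median 0.06) or any 1 of the 3 Eµ-TCL1 nodes, the 2 lower genes in T cells became 1 without any of 6 of the 10 libraries, without Eµ-TCL1 spleen 1 the T cell counts were 3 higher and 1 lower (median -0.0048), and without Eµ-PRMT5 spleen 5 the T against B cell counts were 5 higher and 6 lower (median 0.12). Of 5 further network genes (Mycl, Mga, Mlx, Mlxip and Mlxipl) 3 were tested. Mlxip, a glucose-responsive partner of Mlx, was lower in cycling T cells (-0.81 ± 0.23, adjusted p = 0.0156). Without Eµ-TCL1 spleen 3 that call of Mlxip was lost (-0.57, adjusted p = 0.0641), and without Eµ-TCL1 spleen 1 the value was -1.44. Named here after its values were seen, since it lay under the 20 CPM asked of named genes in B cells, it was also called in cycling B cells of spleen (-0.65, adjusted p = 0.00266) and node (-0.48, adjusted p = 0.0437), and the node call was lost when any of 6 of the 7 nodes was left out (adjusted p between 0.0585 and 0.109). In T cells Mga, a repressor that binds Max, was lower (-0.64 ± 0.14) and Mlx higher (0.45 ± 0.08) than in B cells.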

How the data were processed

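Libraries were made with 10x Genomics 3′ v2 chemistry. UMI counts were deposited by the authors as whole numbers for each gene and droplet barcode, unfiltered and not normalized; the labels name Cell Ranger 2.0.1, Seurat 2.2.1 and GRCm38, while the matrix headers name version 3.1.0. The network genes, gene lists and motifs were chosen with earlier results of these data known. In each library the 3000 largest barcodes gave a 99th percentile, and a barcode was called a cell with at least that number of UMIs divided by 10, 200 or more genes and no more than 10% of UMIs from mitochondria, and doublets were removed with Scrublet (scanpy 1.11.5, Python 3.11.15, expected 0.8% per 1000 cells). UMIs were summed per library and class of at least 20 cells. Sums were tested in R 4.3.3 with edgeR 4.0.16 (filterByExpr, TMM, robust quasi-likelihood), with DESeq2 1.42.0 as an alternative. A log2 change is the fitted value and its SE was taken from the F statistic. Cycling and T against B comparisons had the library as a block, and node against spleen the mouse. Same-mouse samples deviated together (r between 0.217 and 0.665 over 7 pairs), where other pairs had r between -0.476 and 0.200. Correlations used 100000 permutations (exact for 7 nodes), two-sided. Scripts were tested on simulated data. The genes named from each list are the 3 called genes with the largest absolute log2 change among those of at least 20 mean CPM. Each library's mouse is 1 biological sample, and samples were grouped by their titles and descriptions. Node and spleen numbers do not follow the mouse, which was taken from the titles. No sample was left out of the groups.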

Additional observations from a re-analysis of the deposited data

Results flagged for a closer look

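Over 58 groups of 4 or 5 libraries tested for a single library far from the rest, 6 held one. Chance gives about 1 in 20 groups where groups are independent, but these groups share libraries, so that no excess over chance can be read from the count. In B cells of Eµ-PRMT5/TCL1 spleens, spleen 4 stood above the others for Max (190.3 CPM, next 100.7 CPM). It was also flagged for Mycn (0.128 CPM from 2 UMIs, the others at 0), which is 1 of the 6. Any count set against counts of 0 is flagged, so that this flag cannot show a difference. The counts of 0 allowed at most 0.0951, 1.13 and 0.202 CPM in spleens 1, 2 and 3, counting error only. In B cells of Eµ-PRMT5 spleens, spleen 4 had 8.28 CPM of Mxd3, with the next at 1.19 CPM, and it also held the largest share of cycling cells. The part of that share in its Mxd3 level was not tested. In T cells of Eµ-TCL1 spleens, spleen 1 stood above the others for Mxd3 (9.69 CPM, next 1.79 CPM) and Mxi1 (58.3 CPM, next 22.5 CPM). Cycling cells made up 7.69% of its T cells and 0.979%, 1.92% and 0.682% of those of spleens 2 to 4. In non-cycling T cells Mxi1 was 57.5 CPM in spleen 1 and 22.8, 16.7 and 17.55 CPM in spleens 2 to 4. The part of cycling cells in the Mxd3 and Mxi1 levels was not tested. In T cells of Eµ-PRMT5/TCL1 spleens, spleen 4 had 88.2 CPM of Mxi1, with the next at 37.4 CPM. The change of Mxd4 in cycling B cells of Eµ-PRMT5 spleen 4, the only Eµ-PRMT5 library in that comparison, differed from that in the 4 Eµ-TCL1 spleens by a log2 value of -1.75 (adjusted p = 0.0249, edgeR). The single library has no spread of its own and was assumed to vary like the other groups, so that the value describes this library and not the genotype.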

How the results depend on the processing

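Without the library block, 2 network genes were called in cycling B cells of spleen, 2 in those of node and 2 in cycling T cells, against 5, 5 and 4 with it. Mxd3, whose call follows from the filter, is among each of these counts and of the cycling counts below. At least 2 cycling UMIs per 1000 gave 2 in spleen B cells, and at least 0.5 gave 3 in node B cells and 2 in T cells. Leaving out 1 library gave 4 to 6 in spleen B cells, 2 to 5 in node B cells (2 without Eµ-TCL1 node 3), 2 to 4 in T cells (2 without Eµ-TCL1 spleen 1) and 4 to 5 in T against B cells. Genotype and tissue comparisons gave 0 in each alternative run, blocks on the replicate number included. Replicate numbers across genotypes share only a number (r of same-numbered spleens between -0.060 and 0.179, and of nodes between -0.117 and 0.186). The relations of Myc called 0 genes in all B cells, 2 in non-cycling B cells and 2 with a gate that admits Cd3, an alternative added after the data were seen. Of the values of single genes under alternatives 1772 kept their direction and side of the threshold, 104 changed sign and were called neither there nor in the values reported, 11 gained and 35 lost a call, and 0 changed sign with a call on either side. Sign changes included Myc in cycling B cells of the spleen (0.22, down to -0.50) and Mxd1 between genotypes in node B cells (-1.11, up to 0.69). The cycling limit moved called values by over 1.5 times: at 2 UMIs per 1000 Mnt became -0.36 in spleen B cells (adjusted p = 0.0799) and Max -0.51 in T cells (0.00205), and at 0.5 Mxd4 became -0.51 in node B cells (0.00037) and -0.43 in T cells (0.0644), and Mxd1 -0.36 in node B cells (0.0539). Over all genes the cycling counts of 3650, 3100 and 3004 became 1479, 873 and 1233 without the block, the lowest of these alternatives, and at most 4351, 3810 and 3563 in another. Those at the other cycling limits lay within these ranges. Leaving out 1 library gave 3348 to 3986, 2121 to 3183 and 2131 to 3205 genes, and 5698 to 6435 in T against B cells. Without a filter on low counts 51 genes were called between node and spleen in B cells and 125 in T cells. The depth of Mycn, and of Mxd3 outside cycling cells, limits what can be said of them, and fewer than 20 cycling B cells in 4 of 5 Eµ-PRMT5 spleens leave 1 library for that genotype.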

Other observations

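Other cell classes of the spleen, gated by their markers and given as values, held other members of the network. Neutrophils of 11 spleens had 356 ± 99.2 CPM of Mxd1 (mean ± SD), 207 CPM of Max, 21.6 CPM of Mxd3 and 2.65 CPM of Myc. Monocytes and macrophages of 12 spleens had 14.6 CPM of Myc, 12.5 CPM of Mxd3 and 30.4 CPM of Mxd4. Plasma cells of 9 spleens had 94.0 CPM of Mxd4, 34.6 CPM of Max and 53.0 CPM of Myc. NK cells of 3 spleens had 121 CPM of Mxd1 and 161 CPM of Max, and no UMI of Mxd3. These were Eµ-PRMT5 spleens 1 to 3, with 22, 37 and 34 NK cells. They held 54 UMIs of Mxd1 and 73 of Max, too few for the count of 0 to show that Mxd3 was absent.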
